A study of Homo sapiens with 8 samples.

Results

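Genes of DNA replication and mitosis were followed in 4 human cancer cell lines treated with interferon-gamma (IFN-gamma), a cytokine released by T cells and NK cells. The 59 members are 27 replication genes of S phase, 30 mitotic genes of G2 and M phase, and CCND1 and CDC25A, which act in G1 and were put in neither list. They were taken by gene symbol, as a set of textbook cell cycle genes, from the 24462 symbols of the count table, and all 59 were present. All 59 also passed the filter on low counts, with a smallest count of 15 in any library. The labels call A375 a skin line, A498 a kidney line, and both H1703 and 549 lung cancer lines. Each gave 1 untreated library and 1 library of cells treated with human recombinant IFN-gamma at 20 ng/ml, both cultured for 72 hours in medium with serum. No genotype, allele or replicate culture is given, so the lines themselves (n = 4) serve as replicates. Errors rest on how far the response differed between lines, but edgeR moderates them across genes, so they are not a gene's own spread.

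In dividing cells, replication origins are licensed in G1 by loading the MCM helicase, and in S phase CDC45 and the GINS complex switch that helicase on. Their genes, with those of nucleotide supply, are driven by E2F transcription factors, which the retinoblastoma protein holds in check until cyclin-dependent kinases inactivate it. Genes of mitosis peak later, through the MuvB complex with MYBL2 and FOXM1, which acts at the cell cycle genes homology region (CHR) of their promoters. CDK inhibitors such as p21, the product of CDKN1A, lower both groups through pocket proteins, the family of the retinoblastoma protein. IFN-gamma has long been known to slow the growth of some tumour lines.

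The promoters below show letters whose share differs between the 2 lists, though some windows hold both kinds. E2F letters (TTCCCGC, or in its place TTGGCGC, or in its place TTCGCGC, or in its place TTGCCGC, on either strand) are in capitals in the replication genes RRM1, E2F1 and MCM6. CHR letters (TTTGAA, or in its place TTCGAA, on either strand) are in capitals in the mitotic genes KIF11, BUB1B and CDK1. These 6 have the smallest p-values for treatment in their list among members with a match. Each window runs from 250 bases before the gene's start to 50 after it, 5′ to 3′ on the gene's strand, from RefSeq on GRCh38.p14. CDK1 has 2 annotated windows, and the one with more CHR matches is shown. Only the letters of a gene's own list are in capitals. The CDK1 window also holds 2 E2F matches, and those of RRM1 and MCM6 hold 1 CHR match each.
RRM1 (chr11:4094435-4094734, plus strand): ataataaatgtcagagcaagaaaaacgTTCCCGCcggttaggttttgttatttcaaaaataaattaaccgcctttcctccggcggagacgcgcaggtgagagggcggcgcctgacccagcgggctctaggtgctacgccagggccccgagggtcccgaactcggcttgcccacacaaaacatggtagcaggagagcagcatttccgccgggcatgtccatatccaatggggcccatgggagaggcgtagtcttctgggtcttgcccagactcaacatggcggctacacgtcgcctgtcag
E2F1 (chr20:33686336-33686635, minus strand): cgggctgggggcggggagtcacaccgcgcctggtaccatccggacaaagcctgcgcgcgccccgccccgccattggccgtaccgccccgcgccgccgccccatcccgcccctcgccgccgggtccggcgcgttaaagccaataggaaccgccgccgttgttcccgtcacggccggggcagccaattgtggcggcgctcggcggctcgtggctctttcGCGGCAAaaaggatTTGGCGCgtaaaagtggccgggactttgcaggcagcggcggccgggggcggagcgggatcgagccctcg
MCM6 (chr2:135876394-135876693, minus strand): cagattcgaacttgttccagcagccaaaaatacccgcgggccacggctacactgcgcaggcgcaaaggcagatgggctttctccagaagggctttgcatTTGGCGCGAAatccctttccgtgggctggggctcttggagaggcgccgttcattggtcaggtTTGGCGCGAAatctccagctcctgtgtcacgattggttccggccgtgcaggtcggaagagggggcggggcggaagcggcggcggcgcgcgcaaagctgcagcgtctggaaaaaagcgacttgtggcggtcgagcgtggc
KIF11 (chr10:92592880-92593179, plus strand): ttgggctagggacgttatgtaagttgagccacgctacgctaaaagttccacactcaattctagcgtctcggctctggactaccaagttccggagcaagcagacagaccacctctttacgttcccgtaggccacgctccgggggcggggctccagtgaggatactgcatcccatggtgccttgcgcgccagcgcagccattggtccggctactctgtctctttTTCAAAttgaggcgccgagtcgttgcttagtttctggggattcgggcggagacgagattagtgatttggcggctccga
BUB1B (chr15:40160819-40161118, plus strand): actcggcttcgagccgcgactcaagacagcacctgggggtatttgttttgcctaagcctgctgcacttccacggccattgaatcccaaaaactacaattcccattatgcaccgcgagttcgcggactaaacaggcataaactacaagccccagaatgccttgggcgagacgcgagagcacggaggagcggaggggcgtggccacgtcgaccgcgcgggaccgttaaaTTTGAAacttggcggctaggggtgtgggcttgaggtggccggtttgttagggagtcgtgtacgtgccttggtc
CDK1 (chr10:60778228-60778527, plus strand): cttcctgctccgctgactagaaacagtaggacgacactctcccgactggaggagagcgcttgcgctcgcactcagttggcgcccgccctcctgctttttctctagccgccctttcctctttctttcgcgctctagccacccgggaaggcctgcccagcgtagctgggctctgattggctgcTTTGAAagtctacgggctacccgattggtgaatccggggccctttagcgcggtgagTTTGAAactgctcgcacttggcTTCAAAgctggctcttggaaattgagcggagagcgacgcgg

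Of the 59 members 48 had a window in that table. E2F letters were in 19 of 23 replication members (82.6%) and in 6 of 24 mitotic members (25%), against 25.1% of the 9872 tested genes with a window and 15.3% of the 27305 genes in the table. CHR letters were in 17 of 24 mitotic members (70.8%) and in 2 of 23 replication members (8.7%), namely RRM1 and MCM6, against 15.5% of tested genes and 19.5% of the table. The CCAAT box (CCAAT, either strand) was in 15 replication and 19 mitotic members, 65.2% and 79.2%, against 43.4% and 39.7%. The median GC content of the windows was 66.8% in replication members, 61.2% in mitotic members, 64.8% in tested genes and 58.3% in the table. In KIF11 and BUB1B the CHR letters begin at -28 and -23 from the start, and in CDK1 3 matches lie between -69 and 10. MCM10, CDC45, FEN1 and CCNE1 held no E2F letters in these windows. A match is letters only, and binding was not measured.

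**Figure D1:**
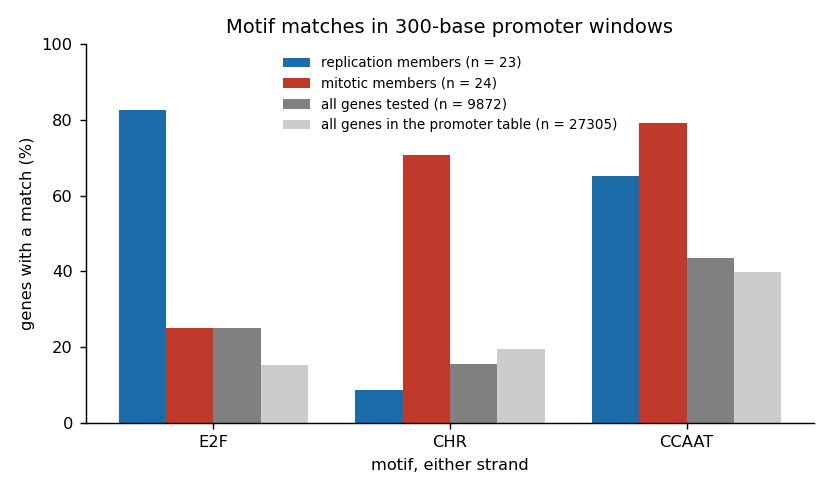
Share of genes with a match to E2F, CHR or CCAAT letters on either strand of a 300-base promoter window (bars, percent), for replication members, mitotic members, all genes tested and all genes of the promoter table. E2F letters stand highest in the replication members (82.6%) and CHR letters in the mitotic members (70.8%).

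Total counts ranged from 6559933 to 9291154 per library. IRF1, a transcription factor gene induced by IFN-gamma, had 224 and 4256 counts (549), 145 and 6171 (A375), 378 and 7933 (A498), 515 and 10579 (H1703), so every library labelled as treated showed it higher. Of the origin markers, SOX10 had 3952 and 4269 counts in A375 and 9 or fewer elsewhere, while the pigment genes MLANA, PMEL and TYR had 28, 20 and 18 counts in untreated and 4, 3 and 11 in treated A375. MITF, the melanocyte regulator, had 3540 counts in untreated and far fewer in treated A375, and its part in the A375 results was not tested. PAX8 had 1552 and 2097 counts in A498 and 47 or fewer elsewhere, and PAX2 had 234 and 339 there and 44 or fewer elsewhere. The other renal markers were mixed. CDH16 had 23 and 47 counts in A498 and 2 or fewer elsewhere. LHX1 did not set A498 apart (270 and 253 counts, against 251 and 362 in H1703), and CA9 was highest in 549 (320 and 185, against 22 and 25 in A498). In the lung cancer lines 549 and H1703, NKX2-1, SFTPB, SFTPC, NAPSA, KRT5 and TP63 had 18 or fewer counts each. Of the leukocyte markers CD3E was at 0 in every library, LYZ had 2 or fewer counts, PTPRC 33 or fewer, and CD68 from 37 to 736.

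With IFN-gamma the summed levels of both lists were lower in A375, 549 and A498, while in H1703 the replication sum was higher and the mitotic sum lower. CCND1, which is in neither list, was higher in each line, and NDC80 of the mitotic list was higher in 549, A498 and H1703. No member passed the test across lines. Summed over the 27 replication members, counts taken over the unscaled library total, in units of CPM, went from 2310 to 1222 (549), 2539 to 905 (A375), 2004 to 1357 (A498) and 2827 to 2986 (H1703). The 30 mitotic members summed on the same unscaled basis to 6923 before and 4613 with treatment (549), 6294 and 2244 (A375), 4919 and 3850 (A498), and 8279 and 7707 (H1703). Sums weigh abundant genes most, and TOP2A alone held 14907 of the 58790 mitotic counts in untreated H1703. By scaled ratios, 19 mitotic members were lower and 11 higher in that line. In bulk RNA, fewer cells in S phase or mitosis and less of these transcripts per cell cannot be told apart.

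Across the 4 lines no single member passed the test. By edgeR's quasi-likelihood test with cell line as a term, 0 of 59 members reached a Benjamini-Hochberg adjusted p of 0.05, against 258 of 13457 genes tested (1.92%), with 1.59% called higher and 0.327% lower. The lowest adjusted p among members was 0.0765 (edgeR, for CCND1). At an unadjusted p under 0.05 there were 30 members, 29 lower and CCND1 higher, where 21.1% of all genes passed that level, 10.2% lower and 10.8% higher. All members were measured in the same libraries and can move together, so these are not 30 separate results. The count was 12 without 549 and 9 without A375. DESeq2 called 7 members (7.7% of all genes): CCND1 higher, and RRM1, E2F1, MCM4, BUB1B, KIF11 and KIF20A lower. edgeR without a filter called CCND1, RRM1, E2F1 and BUB1B (4.2% of all genes), and limma-voom called none. Without H1703, edgeR called RRM1 and FEN1 (3.39% of all genes).

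The fitted log2 change of the replication members had a median of -0.69, from -1.0 for RRM1 to -0.02 for RFC4, and that of the mitotic members a median of -0.50, from -0.94 for BUB1B to 0.31 for NDC80. The median over all genes tested was -0.02. All 27 replication and 29 of 30 mitotic members had a fitted change below 0, as did 6903 of all 13457 genes tested. Without A375 these medians were -0.35 and -0.29, and without H1703 -0.94 and -0.64. Of the members, 24 were lower in each of the 4 lines (9 replication, 15 mitotic), which held for 15.2% of all genes, and CCND1 was higher in each, which held for 15% of them.

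**Figure D2:**
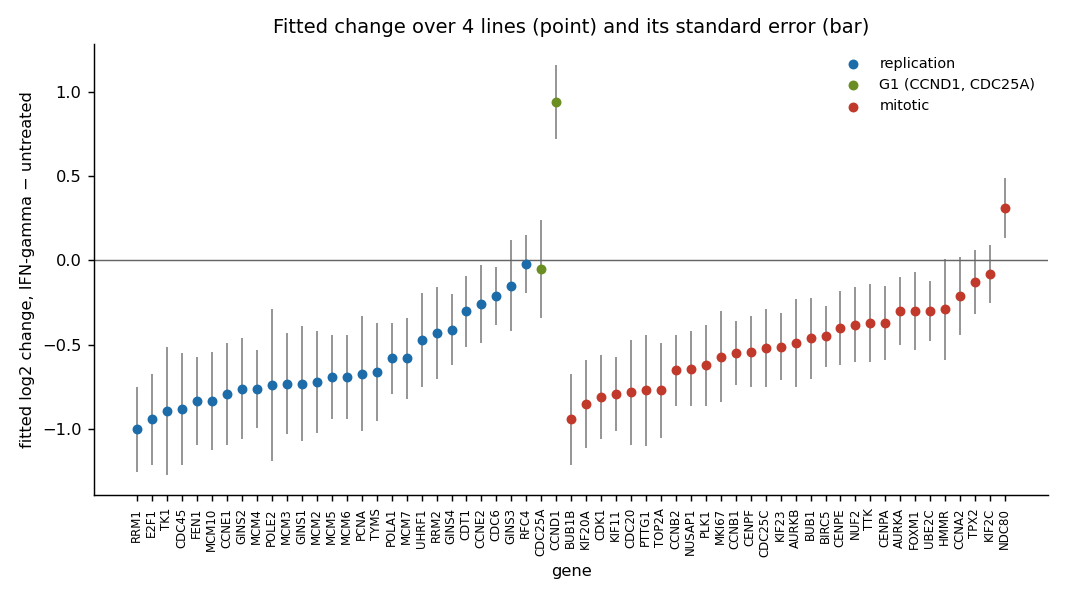
Fitted log2 change with IFN-gamma over 4 lines for each member (points) with its standard error (bars), ordered within replication, G1 and mitotic genes. Points run from -1.0 (RRM1) to 0.94 (CCND1), and every replication member lies below 0.

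The contrast of replication with mitotic genes differed in size and sign between lines. Within a line the log2 ratio of treated to untreated CPM has 1 library on each side and no test. For these ratios, and for each gene's CPM in the following text, library totals were scaled by TMM, so these CPM are not on the unscaled basis of the sums. In 549 the median ratio was -1.02 for replication members and -0.46 for mitotic members, a difference of -0.56. In A375 the medians were -1.38 and -1.15, a difference of -0.23. In A498 they were -0.45 and -0.31, a difference of -0.14, which was -0.02 with 4 regulators or markers left out of each list. In H1703 the order turned, with 0.15 for replication and -0.06 for mitotic members, a difference of 0.21. Medians of all genes tested lay between -0.01 and 0.00 in every line.

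Counted at 1.5-fold or more, 21 of 27 replication and 13 of 30 mitotic members were lower in 549, where 20.3% of all genes were. In A375 the counts were 24 and 27, against 21.1% of all genes. A498 had 8 and 5, against 17.4%. H1703 had none in either list, against 6.27%. Members 1.5-fold or more higher were NDC80 and CCND1 in 549 (16.9% of all genes), CCND1 alone in A375 (20.7%), none in A498 (20.4%), and POLE2 and CCND1 in H1703 (7.33%). By an exact 95% binomial interval of each ratio, which covers counting error only, 11 replication members lay above 0 in H1703 and 3 below, while 11 mitotic members lay below 0 and 7 above. In A375 that interval lay below 0 for all 27 replication members and for 29 of 30 mitotic members, NDC80 being the exception. The share of all genes with such intervals was not computed, so these interval counts have no background to be read against.

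**Figure D3:**
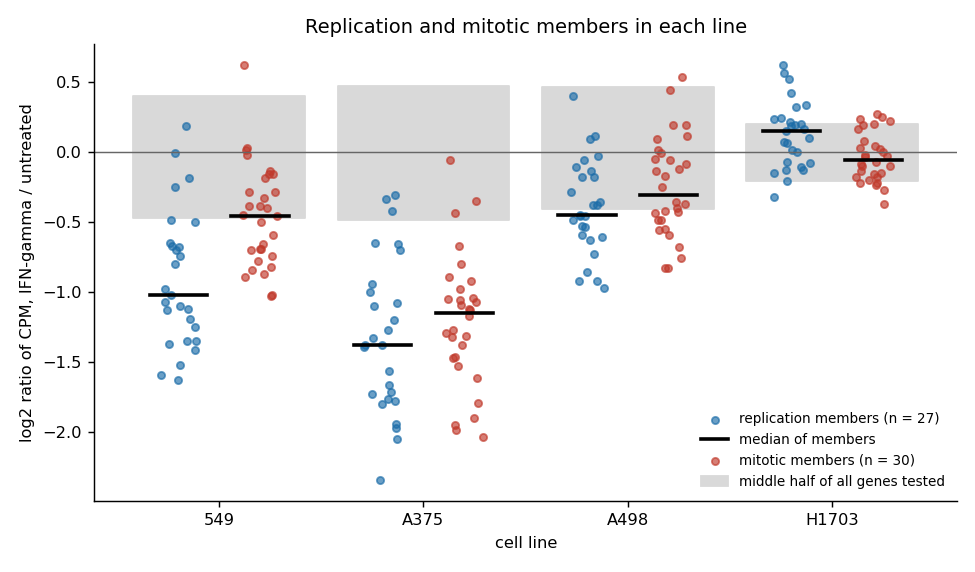
Log2 ratio of CPM (IFN-gamma over untreated, vertical axis) for each replication member (blue) and mitotic member (red) in the 4 lines, with list medians (black bars) and the interquartile range of all genes tested (grey). In 549 the replication median of -1.02 lies below the mitotic median of -0.46, and in H1703 0.15 lies above -0.06.

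Among the licensing and helicase genes, the MCM2 to MCM7 subunits, which form 1 ring, had unequal ratios. MCM2 CPM went from 90.9 to 56.5 (549), 163 to 42.5 (A375), 116 to 102 (A498) and 169 to 154 (H1703). MCM3, another subunit of the ring, went from 83.1 to 58.6, 127 to 32.0, 86.1 to 61.1, and 228 to 228 in the same order. MCM5 went from 79.0 to 29.5, 81.2 to 37.6, 46.6 to 44.6 and 151 to 131. In A375 MCM2 and MCM3 had the lowest log2 ratios of the 6 subunits (-1.94 and -1.97), whereas in 549 MCM5 did (-1.41). MCM4, with a fitted log2 change of -0.76 ± 0.23 (SE), went from 187 to 88.9, 200.4 to 76.9, 175 to 121 and 143 to 136 CPM. Treated A375 and 549 were the lowest libraries for all 4 of these genes. MCM4 was the only member whose untreated and treated levels did not overlap, 1 of 59 members against 1.1% of all genes (treated lower), and the other 3 genes overlapped.

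The loading factors CDC6 and CDT1 had fitted changes of -0.21 ± 0.17 and -0.30 ± 0.21 (SE), closer to 0 than those of the MCM subunits they load. CDC6 CPM went from 54.5 to 45.6 (549), 52.6 to 42.3 (A375), 55.1 to 43.0 (A498) and 70.2 to 75.3 (H1703). CDC45 and MCM10, which act when the helicase is switched on, had -0.88 ± 0.33 and -0.83 ± 0.29. Of the 4 GINS subunits, GINS1 and GINS2 had -0.73 ± 0.34 and -0.76 ± 0.30, GINS4 -0.41 ± 0.21 and GINS3 -0.15 ± 0.27. GINS1 went from 54.5 to 24.9, 33.6 to 9.73, 30.5 to 21.0 and 24.2 to 34.8 CPM in 549, A375, A498 and H1703. GINS2 went from 35.8 to 12.3, 25.6 to 10.97, 33.9 to 22.4 and 29.99 to 35.4 in the same order. GINS3 was lower in 549 and A375 (18.3 to 11.4 and 16.8 to 10.2) and higher in A498 and H1703 (20.2 to 26.7 and 13.6 to 17.2). H1703 was thus the line where GINS1 and GINS2 were higher with treatment.

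PCNA, the sliding clamp of DNA polymerases, was lower in 3 lines and higher in H1703: CPM went from 258 to 183 in 549, 190.5 to 54.4 in A375, 127 to 67.3 in A498 but 99.1 to 146 in H1703. Its counting intervals on the log2 scale were -1.96 to -1.66 in A375 and 0.43 to 0.69 in H1703. FEN1, the flap nuclease of Okazaki fragments, went from 114 to 52.1, 152 to 58.4, 87.0 to 44.2 and 119.7 to 137 CPM. RFC4, a subunit of the clamp loader, had a fitted change of -0.02 ± 0.17 (SE). It went from 74.1 to 73.8, 55.2 to 43.5, 49.1 to 52.3 and 92.5 to 103, with log2 ratios of -0.34 in A375 and 0.16 in H1703. POLE2 and POLA1, polymerase subunits, had fitted changes of -0.74 ± 0.45 and -0.58 ± 0.21 (SE). POLE2 had the widest spread between lines of all members (SD of log2 ratios 1.23), from -2.34 in A375 to 0.62 in H1703, and rested on 15 to 163 counts per library.

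In nucleotide supply, RRM1, the large subunit of ribonucleotide reductase, had the lowest fitted change of all members, -1.0 ± 0.25 (SE, edgeR adjusted p = 0.0834). Its CPM went from 303 to 117 (549), 272 to 92.0 (A375), 264 to 139.5 (A498) and 122 to 111 (H1703). Untreated 549, A375 and A498 stood well above untreated H1703, and all treated libraries lay between 92.0 and 139.5. RRM2, its partner subunit, had -0.43 ± 0.27 and went from 137 to 53.4, 155 to 98.1, 101 to 98.6 and 182 to 227 CPM. TYMS, thymidylate synthase, went from 111 to 70.6, 227 to 66.2, 93.6 to 71.9 and 229.6 to 255 CPM. TK1, thymidine kinase, had -0.89 ± 0.38, with log2 ratios from -2.05 in A375 to 0.20 in H1703. Part of TYMS overlaps ENOSF1 on the genome, and strand use in counting is not stated.

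Among the G1/S regulators, E2F1 CPM went from 45.8 to 17.9 (549), 62.0 to 19.4 (A375), 40.5 to 26.6 (A498) and 93.7 to 84.6 (H1703) (log2 change -0.94 ± 0.27 SE, edgeR adjusted p = 0.106). It was lower in each line, but the groups overlapped, as treated H1703 lay above untreated 549, A375 and A498. Of the cyclin partners of CDK2, CCNE1 had a fitted change of -0.79 ± 0.30 and CCNE2 of -0.26 ± 0.23. CCNE2 went from 16.4 to 18.6, 20.3 to 15.1, 20.5 to 11.2 and 37.3 to 38.8 CPM, so only A498 and A375 were lower. UHRF1, which carries DNA methylation through replication, went from 22.9 to 10.6, 21.5 to 11.1, 25.2 to 20.6 and 21.1 to 28.4.

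The G1 member CCND1, cyclin D1, had the highest fitted change of any member, 0.94 ± 0.22 (SE, edgeR adjusted p = 0.0765), though it was not called. Its CPM went from 245 to 409.5 (549), 282 to 809.8 (A375), 301 to 374.97 (A498) and 60.2 to 135 (H1703). A375, where replication and mitotic members were lowest, had the highest CCND1 ratio, 1.52. The range over alternatives was 0.74 to 1.14. CDC25A, a phosphatase that activates CDK2, went from 12.5 to 17.1, 25.6 to 12.2, 15.8 to 14.2 and 33.2 to 47.8 CPM, with A375 and A498 lower and 549 and H1703 higher, and its sign turned without A375 (0.28).

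**Figure D4:**
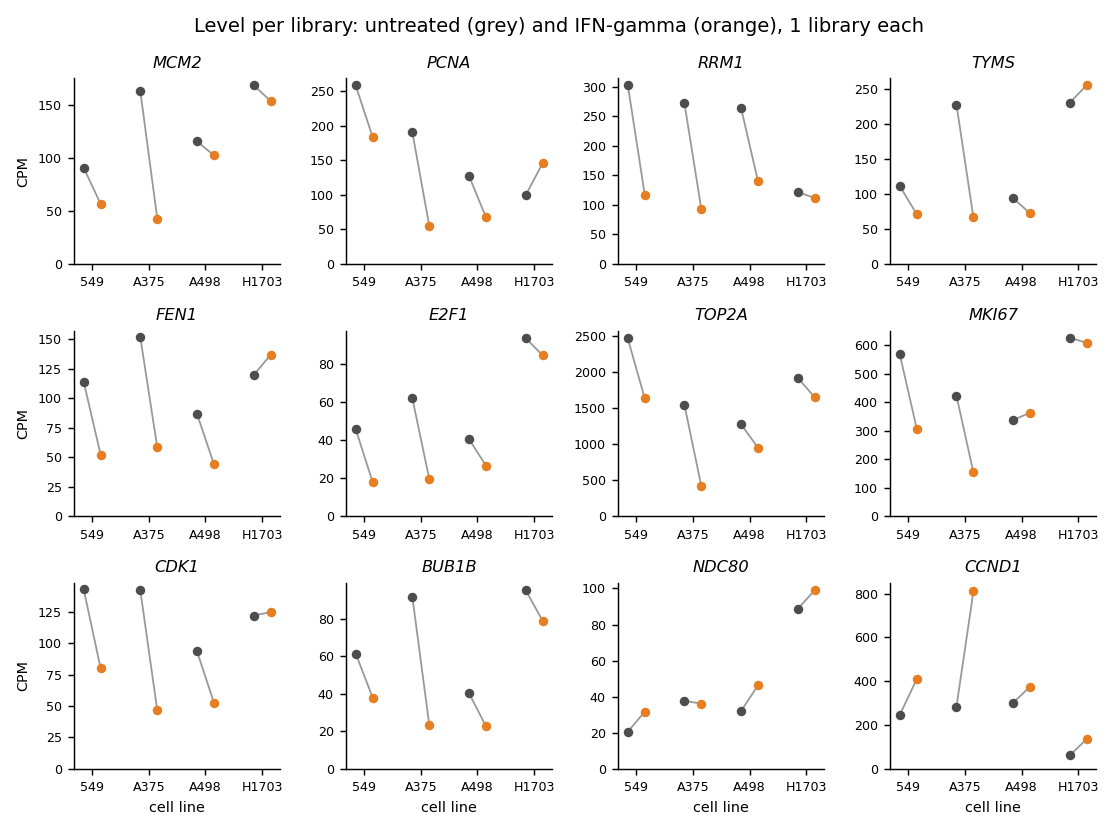
CPM (vertical axis, from 0) of 12 members in each library, with the untreated (grey) and IFN-gamma (orange) library of a line joined. RRM1 runs from 303 to 117 in 549, PCNA is higher with treatment in H1703 (99.1 to 146), and CCND1 is higher in all 4 lines.

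Of the mitotic kinases and cyclins, CDK1 had the lowest fitted change, -0.81 ± 0.25 (SE, edgeR adjusted p = 0.130). CDK1 CPM went from 143 to 80.1 (549), 142 to 46.5 (A375), 93.8 to 52.7 (A498) and 122 to 125 (H1703). CCNB1, cyclin B1, its mitotic partner, went from 202 to 147, 149.9 to 71.2, 141 to 104 and 214 to 181, lower in each line. CCNA2, cyclin A2, which acts in S phase and G2, had a counting interval below 0 in A375 alone (84.4 to 40.6), with 75.7 and 74.4 for 549, 104 and 104 for A498, 119 and 136 for H1703. PLK1, a kinase of mitotic entry, went from 173 to 138, 141 to 48.5, 213 to 151 and 201 to 178. AURKB, the kinase of the chromosomal passenger complex, went from 188 to 103, 153 to 63.7, 87.2 to 83.4 and 157 to 186. FOXM1, an activator of these genes, went from 49.9 to 40.8, 56.4 to 26.4, 60.2 to 54.7 and 185 to 223, so both it and AURKB were higher in treated H1703. CCNB2, CDC25C and AURKA had fitted changes of -0.65, -0.52 and -0.30.

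At the kinetochore, BUB1B, the checkpoint protein BubR1, had the lowest fitted change of the mitotic list, -0.94 ± 0.27 (SE, edgeR adjusted p = 0.112). It went from 61.3 to 37.9 CPM (549), 91.7 to 23.1 (A375), 40.3 to 22.6 (A498) and 95.2 to 78.8 (H1703). Its relative BUB1 had -0.46 ± 0.24. NDC80, which binds microtubules as part of a complex with NUF2, was the exception among mitotic genes: it went from 20.4 to 31.6 CPM in 549, 32.0 to 46.2 in A498 and 88.7 to 99.0 in H1703, and from 37.7 to 36.0 in A375. NUF2 had -0.38 ± 0.22 against 0.31 ± 0.18 for NDC80, and was lower in each line. TTK, CENPA, CENPE and CENPF had fitted changes from -0.54 to -0.37. BUB1B overlaps the read-through gene BUB1B-PAK6, whose reads the counting could share.

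Spindle genes ran from KIF20A at -0.85 ± 0.26 and KIF11 at -0.79 ± 0.22 (SE) to KIF2C at -0.08 ± 0.17. KIF20A, a motor of cytokinesis, went from 48.4 to 30.01 CPM (549), 114 to 32.5 (A375), 61.3 to 36.1 (A498) and 125 to 109.8 (H1703). KIF11, the motor that separates spindle poles, went from 77.3 to 38.1, 55.3 to 21.1, 34.4 to 23.2 and 95.0 to 81.7. Both were lower in each line. KIF2C, a microtubule depolymerase, went from 48.6 to 43.6, 82.8 to 64.96, 44.5 to 50.7 and 57.7 to 58.4, and TPX2, the activator of Aurora A, from 293 to 298, 278 to 174, 218 to 248 and 448 to 426. HMMR had log2 ratios of -1.47 in A375 and 0.44 in A498. NUSAP1 and KIF23 had fitted changes of -0.64 and -0.51.

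Of the genes of anaphase and cytokinesis, CDC20, the activator of the anaphase-promoting complex, went from 99.8 to 56.2 CPM (549), 148 to 36.0 (A375), 96.1 to 80.6 (A498) and 189.6 to 179 (H1703). UBE2C, the ubiquitin-conjugating enzyme of that complex, went from 121 to 92.7, 134 to 99.0, 150.0 to 102 and 103 to 118. BIRC5, survivin, went from 206 to 169, 139 to 75.3, 162 to 116 and 191 to 172. PTTG1, securin, had log2 ratios of -1.03, -1.95, -0.37 and 0.23 in 549, A375, A498 and H1703. It is 1 of 12 members, UBE2C, PCNA and RRM2 among them, with a pseudogene of their name that could share reads. How alike these copies are was not measured. The proliferation marker MKI67 went from 567 to 306, 423 to 153, 337 to 363 and 626 to 607, and TOP2A, the topoisomerase that untangles chromosomes, from 2465 to 1632, 1544 to 412, 1274 to 948 and 1919 to 1647. TOP2A was lower in each line and MKI67 was slightly higher in A498.

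**Figure D5:**
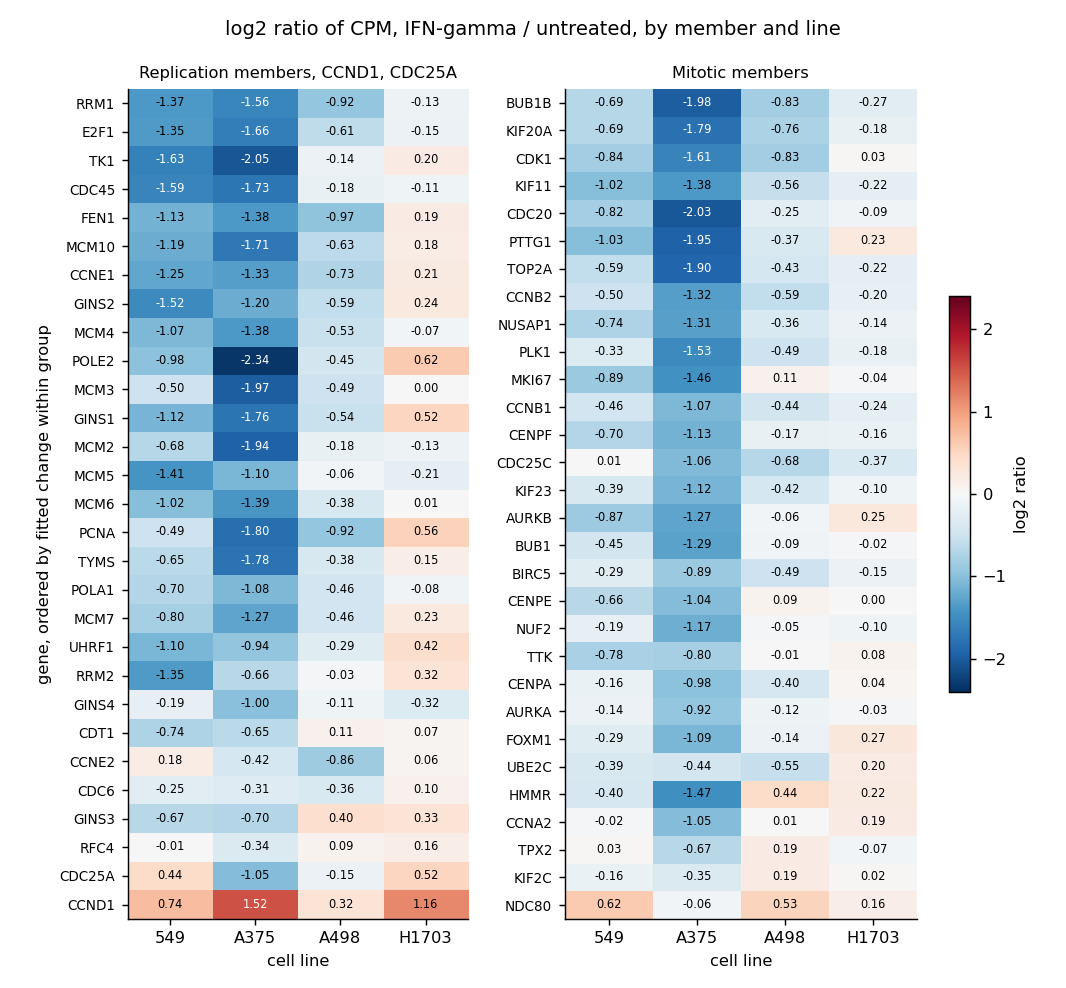
Log2 ratio of CPM (IFN-gamma over untreated, colour and printed value) for each member (rows, ordered by fitted change within group) in each line (columns). The A375 column is the lowest for 20 of 27 replication and 29 of 30 mitotic members, where it was for 3727 of all 13457 genes tested. CCND1 and NDC80 end their groups with the highest fitted changes.

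Whether a line's response differed from that of the other 3 was tested as an interaction for each gene, with that line taken to vary like the others. With edgeR the interaction called 0 genes for each of the 4 lines at an adjusted p of 0.05 (0.0%), members included. DESeq2 and limma-voom called 0 members too. For A375, 21 members were at an unadjusted p under 0.05, each more negative than in the other lines (6 replication, 14 mitotic and CDC25A), where 8.57% of all genes were at that level, 4.07% lower and 4.5% higher. The smallest p-values were those of MCM3, with a log2 difference of -1.65 ± 0.40 (SE, edgeR adjusted p = 0.30), MCM2 with -1.61 ± 0.41 and CDC20 with -1.66 ± 0.43, and the most negative difference was that of POLE2, -2.24. For H1703, 9 members were at that level, each with a higher ratio than in the other lines (8 replication, 1 mitotic), against 3.11% of all genes, 1.43% higher and 1.68% lower. Among them only RRM1 had a log2 ratio below 0 in H1703 (-0.13). FEN1 differed by 1.36 ± 0.39, GINS1 by 1.67 ± 0.57 and PCNA by 1.63 ± 0.55 (edgeR adjusted p = 1.0 for each). For 549 there was 1, RRM2 with -1.23 ± 0.48, against 3.6% of all genes, 2.41% lower and 1.2% higher, beside MCM5 and GINS2 with -0.96 ± 0.52 and -1.03 ± 0.63. For A498 there was none among members, with 4.35% of all genes at that level, 1.51% lower and 2.84% higher, and the smallest p-values were those of CCND1 (-0.82 ± 0.47), CCNE2 (-0.82 ± 0.50) and MKI67 (0.91 ± 0.58). The median difference in 549 was -0.44 for replication and 0.07 for mitotic members, and in H1703 1.07 and 0.60. The lists lay close together in A375 (-0.80 and -0.89) and A498 (0.31 and 0.30).

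Other genes of the same processes were listed by function, with earlier results of these data known. At an unadjusted p under 0.05, 10.2% of all genes were lower and 10.8% higher, and 1.92% of all genes were called. Of 39 other replication genes 0 were called in either direction, with 11 lower and 1 higher at an unadjusted p under 0.05 and a median fitted log2 change of -0.41. LIG1, the ligase that joins Okazaki fragments, had -1.13 ± 0.29 (SE, edgeR adjusted p = 0.090). Of 43 tested other mitotic genes 0 were called, with 17 lower and 0 higher at that level and a median of -0.36. CDCA3, which promotes entry into mitosis, had -1.14 ± 0.28 and ASPM, a spindle pole protein, -0.97 ± 0.24. In 549 their medians were close, -0.46 for other replication and -0.45 for other mitotic genes, so the gap of the members in that line did not appear between these lists. In A375 they were -0.84 and -0.93, a gap of the opposite sign to that of the members. In A498 they were -0.30 and -0.23, and in H1703 0.10 and 0.02.

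Among 9 tested CDK inhibitors and pocket proteins CDKN1A was called higher and none lower, against 1.59% of all genes called higher and 0.327% lower. For CDKN1A, which encodes p21, the counts were 467 and 750 (549), 1280 and 2422 (A375), 1524 and 2563 (A498), 104 and 328 (H1703). It rose on the log2 scale by 0.98 with an SE of 0.19, and edgeR gave an adjusted p of 0.042. Its call was lost without any 1 line (edgeR adjusted p from 0.076 to 0.13), and also with upper quartile scaling (0.056) or library size alone (0.059). H1703, where the median ratio was 0.15 for replication and -0.06 for mitotic members, had the highest CDKN1A log2 ratio, 1.43. Its treated CDKN1A level, 36.6 CPM, was the lowest of the treated libraries. That level also lay below the untreated levels of 549, A375 and A498 (67.7, 141 and 225 CPM). How CDKN1A relates to the members was not tested. CDKN2C, an inhibitor of CDK4 and CDK6, had -1.82 ± 0.39 (edgeR adjusted p = 0.060), with log2 ratios of -3.15, -2.43, -1.56 and -0.58 in 549, A375, A498 and H1703. Of 15 other E2F, DREAM and MuvB genes 0 were called, with a median of 0.08. MYBL2, the S-phase partner of MuvB, had -1.03 ± 0.30, with log2 ratios of -1.58, -1.89, -0.48 and -0.19. Of 8 tested G1 cyclins, CDKs and related genes 0 were called. SKP2, the ubiquitin ligase subunit that removes p27, had -1.29 ± 0.41, with ratios of -0.93, -2.42, -2.05 and 0.27.

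Untreated levels set the starting point of each line. FOXM1 was highest in H1703 (185 CPM against 49.9 to 60.2 in the other untreated lines), as were NDC80 (88.7 against 20.4 to 37.7) and MCM5 (151 against 46.6 to 81.2). CCND1 was lowest there, at 60.2 against 245 to 301. CCND2, another cyclin D gene, which the filter removed, stood at 643 CPM in untreated H1703 against 0.33 or less in the other untreated lines. CDKN2A, a CDK inhibitor gene, stood at 297 CPM there against 12.2 or less. PCNA was highest in untreated 549, at 258, and lowest in untreated H1703, at 99.1. PTTG1 was highest in A375, at 642 against 150.3 to 321. With 1 untreated library per line these differences have no replicate check.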

How the data were processed

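RNA was sequenced from 4 lines, untreated and with IFN-gamma, in 8 libraries. Per the labels' protocols, RNA came from TRIzol extracts. SMARTer (poly(A), stranded) and QuantSeq 3' kits are both named, and the choice between them is not said. Bowtie2, edgeR and hg19 are named in the submitters' processing notes. No source used here gives versions, annotation, counter or strand use. The authors deposited raw counts per gene and log2 normalized values in 1 table of 25737 rows, per the file headers. The deposited log2 values, whose scaling is not stated, served 1 alternative only. Unused per-sample columns numbered 0.

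Rows were summed by symbol (0 members had several). The filter filterByExpr (minimum count 10, total 15) left 13457 genes. Counts were scaled by TMM and tested with edgeR 4.0.16 (R 4.3.3, quasi-likelihood, cell line as a term, 3 residual degrees of freedom, Benjamini-Hochberg over all genes). The same line is in both arms, which pairs the libraries. Their deviations from arm means correlated at 0.847 to 0.903 across genes. The standard error is the log2 change divided by the root of F. CPM uses TMM sizes, and single-line log2 ratios a prior count of 2. Intervals cover counting error only. Interactions had 2 residual degrees of freedom. Library totals of 6559933 to 9291154 set the depth.

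Members and lists were chosen with earlier results of these data known. Values per library are given for 22 fixed members and for those with the smallest p, or the most extreme fitted changes, in each list and each interaction. Genes shown beyond these were chosen after their values were seen. Alternatives were RLE, upper quartile and library size scaling, DESeq2 1.42.0, limma-voom (limma 3.58.1), leaving out each line or the cell line term, testing without a filter or with CPM of 1 or more in 4 libraries, prior counts of 0.5 and 5, narrower lists and a 2-fold threshold. All 59 members matched a RefSeq gene. On GRCh38.p14 27 overlap another gene and 12 have a pseudogene of their name, so counts there are uncertain. The methods were tested on simulated data. A few results are not reported here.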

Additional observations from a re-analysis of the deposited data

Results flagged for a closer look

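Sets of 4 values, 1 per line, were searched for a single value far from its neighbours. Of 45 such sets 2 had one, and chance gives about 1 in 20. For CCNA2 the log2 ratio was -1.05 in A375 but -0.02, 0.01 and 0.19 in 549, A498 and H1703, and its fitted change of -0.21 became 0.06 without A375. The untreated A375 library was the deepest, at 9291154 counts, where the remaining untreated lines had between 6750962 and 7101076. What that depth contributes to the A375 results was not tested, and ratios were taken on scaled counts.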

How the results depend on the processing

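The number of members called was 7 with DESeq2, 4 without a filter, 2 without H1703 and 0 under each other alternative, so over the lines left out it ran from 0 to 2. The number of all genes called was 884 without a filter, 1036 with DESeq2, and 153, 207, 106 and 455 without 549, A375, A498 and H1703. With no replicate block (no cell line term) edgeR called 0 genes of any kind, and 2 members were at an unadjusted p under 0.05 against 30 with the term. That count was 12 without 549 and 9 without A375. In the interactions DESeq2 called 9, 71, 19 and 16 of all genes for 549, A375, A498 and H1703, edgeR without a filter 91 for A375 and 31 for A498, and upper quartile or library size scaling 2 for A375. Members called in the interactions stayed at 0 throughout. The median of all genes in a line moved to -0.11 in A375 with library size alone, against 0.00.

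Replication minus mitotic medians kept their sign in each line over the 8 alternatives, from -0.56 to -0.52 in 549, at -0.23 in A375, from -0.15 to -0.02 in A498 (-0.02 with narrower lists) and from 0.21 to 0.23 in H1703. Scaling shifts all ratios of a line nearly alike, so the scaling alternatives could hardly move this difference and are no check of it. Only the narrower lists changed which members were compared. At a 2-fold threshold 2 mitotic members were lower in 549, and 0 replication and 0 mitotic in A498. With library size alone 9 mitotic members were 1.5-fold or more lower in A498. Asking for 1 more T in the E2F letters left 3 mitotic members, and TTTGAA alone left 1 replication member with CHR letters. Signs of small fitted changes turned for CDC25A without A375 (0.28) or the block (0.07), CCNA2, KIF2C and TPX2 without A375 (0.06, 0.02 and 0.05), GINS3 without 549 or A375 (0.03 each), and RFC4 without a filter (0.00), the block (0.01) or A375 (0.08). The causes of these moves were not tested. With 1 library per line and arm, depth limits single-line ratios of low genes such as POLE2.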
